A study of Mus musculus with 13 samples.

Results

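Liver gene expression was compared directly between mice exposed early in life to dichloroacetic acid (DCA) and mice exposed to phenobarbital (PB). Every array whose label gave 3.5 g/L DCA (4 arrays) was set against every array whose label gave 0.06% PB (5 arrays), so 9 of the 13 arrays of the series carried the comparison. A gene was included if its detection p-value was under 0.05 on at least 4 of the 13 arrays, which left 8431 of 18138 genes (46.5%). All mice were male B6C3F1, a hybrid mouse used in cancer bioassays. Per the labels and design text they were 7 days old at the start, were given the chemical in the drinking water for 10 weeks and then received deionized water for 90 weeks. The 4 control mice drank deionized water alone throughout. RNA came from archived frozen liver, with 1 mouse per array, and was hybridised as biotin-labelled cRNA to Illumina bead arrays. The arrays therefore describe livers long after exposure had ended, and the labels do not say whether a piece held a lesion.

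PB is a rodent liver tumour promoter that acts through the nuclear receptor CAR, which induces cytochromes P450 of the Cyp2b family and other drug-metabolising enzymes. DCA is a by-product of water disinfection and a rodent liver carcinogen. It inhibits the pyruvate dehydrogenase kinases and so favours entry of pyruvate into mitochondrial oxidation, and it inactivates its own metabolising enzyme, GSTZ1, which also serves tyrosine breakdown. Rodent liver differs strongly between the sexes, because the sex-specific rhythm of growth hormone secretion sets the expression of many P450s, carriers and secreted proteins.

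Mean raw intensity was between 188.6 and 462.1 on the DCA and PB arrays, and the number of detected genes ran from 7141 to 8458 over the series. The median correlation was 0.976 between arrays of the same group and 0.969 between a DCA and a PB array. The first component of variation over the 9 arrays held 34.7% of the variance and the second 29.8%, and PB replicate 1 lay apart from the rest on the second, at -44.1. Hepatocyte markers had a mean log2 intensity of 11.2 to 11.5 on every DCA and PB array. One defining marker went against the tissue: Alb, the gene of serum albumin, had a mean of only 4.60 in DCA and 4.58 in PB, near the lowest detected level of the arrays (4.62 to 4.85), while the apolipoprotein gene Apoa1 stood at 13.9 and 14.3.

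Few genes separated the exposures, and those lower in DCA included 2 female-type P450s and an isomerase of cholesterol synthesis. With limma and Benjamini-Hochberg adjustment over all tested genes, 9 of 8431 genes (0.107%) had an adjusted p under 0.05. Of these, 6 were lower and 3 were higher in DCA. At an unadjusted p under 0.05, 616 genes (7.31%) were lower and 607 (7.2%) higher in DCA, 1223 together against 421.55 at 5% of the genes tested. All DCA arrays lay below all PB arrays for 245 genes (2.91%) and above them for 259 (3.07%). Differences were balanced over the tested genes, with 50.6% of log2 differences below 0, a median of -0.0039 and a middle range of -0.19 to 0.19. Quantile normalization gives every array the same distribution, so this balance was largely set by the processing and is not a result. With median scaling 57.3% of differences were below 0 and the median was -0.069. The fit gave a median standard error of 0.18, and 103 genes differed by more than 1 on the log2 scale.

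Cyp2b13, a cytochrome P450 of the Cyp2b family that is expressed mainly in female mouse liver, had log2 intensities of 7.88, 7.43, 10.06, 8.42 and 7.64 on the PB arrays. On the DCA arrays it had 4.93, 4.70, 4.44 and 4.49. All PB arrays were higher than all DCA arrays by a wide gap, and the control arrays, at 6.35, 4.46, 4.33 and 4.91, lay below PB as well. The difference, DCA minus PB, was -3.65 ± 0.49 (SE of the fit, 12.5-fold, adjusted p = 0.0166 in limma). Cyp2b13 was detected on 2 of 4 DCA arrays, and its DCA mean of 4.64 was near the lowest detected level, so the size of this fold depends on the treatment of background (-1.76 with the standard background fit).

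Cyp2d12, a second P450 with higher expression in females, had 8.49, 8.02, 8.36, 8.76 and 8.85 on the PB arrays and 6.54, 7.12, 6.49 and 6.28 on the DCA arrays. The groups did not overlap, and the control arrays, at 4.93 to 6.55, lay below all PB arrays and overlapped DCA. The difference was -1.89 ± 0.31 (3.70-fold, adjusted p = 0.0467). Under the standard background fit Cyp2d12 was the single gene past the threshold.

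Idi1, the isopentenyl-diphosphate isomerase of the mevalonate pathway, had 6.70, 6.11, 6.07, 6.03 and 6.13 on the PB arrays and 4.74, 4.75, 4.81 and 4.58 on the DCA arrays. Both groups were tight and far apart, with controls spread between 4.44 and 5.66. Its difference was -1.49 ± 0.21 (2.81-fold, adjusted p = 0.0207), and it was detected on 3 of 4 DCA arrays. Under the standard background fit the difference was -0.26.

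LOC100040592, a predicted gene that the deposited table defines as similar to the Hmgcs1 protein, was a bright row. It had 13.81, 13.40, 13.43, 12.77 and 13.61 on the PB arrays against 11.33, 11.24, 11.83 and 10.90 on the DCA arrays. PB was higher on every array, while the control arrays (11.48 to 12.77) reached up to the lowest PB array. The difference was -2.08 ± 0.28 (4.24-fold, adjusted p = 0.0166). Hmgcs1 itself makes the HMG-CoA from which cholesterol is built, but whether this row measures that gene cannot be told from the files.

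Prss8 encodes prostasin, a membrane-anchored serine protease of epithelia. It had 9.28, 7.20, 7.48, 7.24 and 7.54 on the PB arrays and 5.38, 5.18, 6.08 and 5.40 on the DCA arrays. DCA and control were alike in mean (5.51 ± 0.39 SD, n = 4, and 5.51 ± 0.34 SD, n = 4), and PB replicate 1 stood highest. The difference was -2.24 ± 0.37 (4.73-fold, adjusted p = 0.0467).

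Endod1, which encodes a protein with an endonuclease domain, had 8.17, 7.56, 7.79, 7.50 and 7.93 on the PB arrays and 6.26, 6.62, 6.99 and 6.44 on the DCA arrays. Its difference was -1.21 ± 0.18 (2.32-fold, adjusted p = 0.0258). The control arrays, between 6.61 and 7.10, overlapped DCA and lay below PB.

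Of the genes that were higher in DCA, Srd5a1 differed most. It encodes the steroid 5-alpha-reductase that converts testosterone to dihydrotestosterone and is higher in female than in male rodent liver. It had 7.81, 7.52, 6.95 and 7.85 on the DCA arrays and 5.50, 5.81, 5.64, 6.58 and 6.08 on the PB arrays, with controls that overlapped both (6.10 to 7.23). The difference was 1.61 ± 0.27 (3.06-fold, adjusted p = 0.0468), opposite in sign to both female-type P450s.

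Pigt belongs to the enzyme complex that links proteins to a GPI anchor and had 7.98, 8.27, 7.76 and 8.27 on the DCA arrays. The PB arrays were tightly grouped at 7.28, 7.23, 7.03, 7.18 and 7.26, below every DCA and every control array (8.02 to 8.59). The difference was 0.87 ± 0.15 (1.83-fold, adjusted p = 0.0468). Zfp771, a zinc-finger protein gene, had 7.09, 6.87, 7.29 and 6.93 on the DCA arrays against 6.22, 6.32, 5.74, 6.08 and 5.93 on the PB arrays, a difference of 0.99 ± 0.17 (1.98-fold, adjusted p = 0.0468). Its controls (6.65 to 7.31) lay with DCA.

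**Figure D1:**
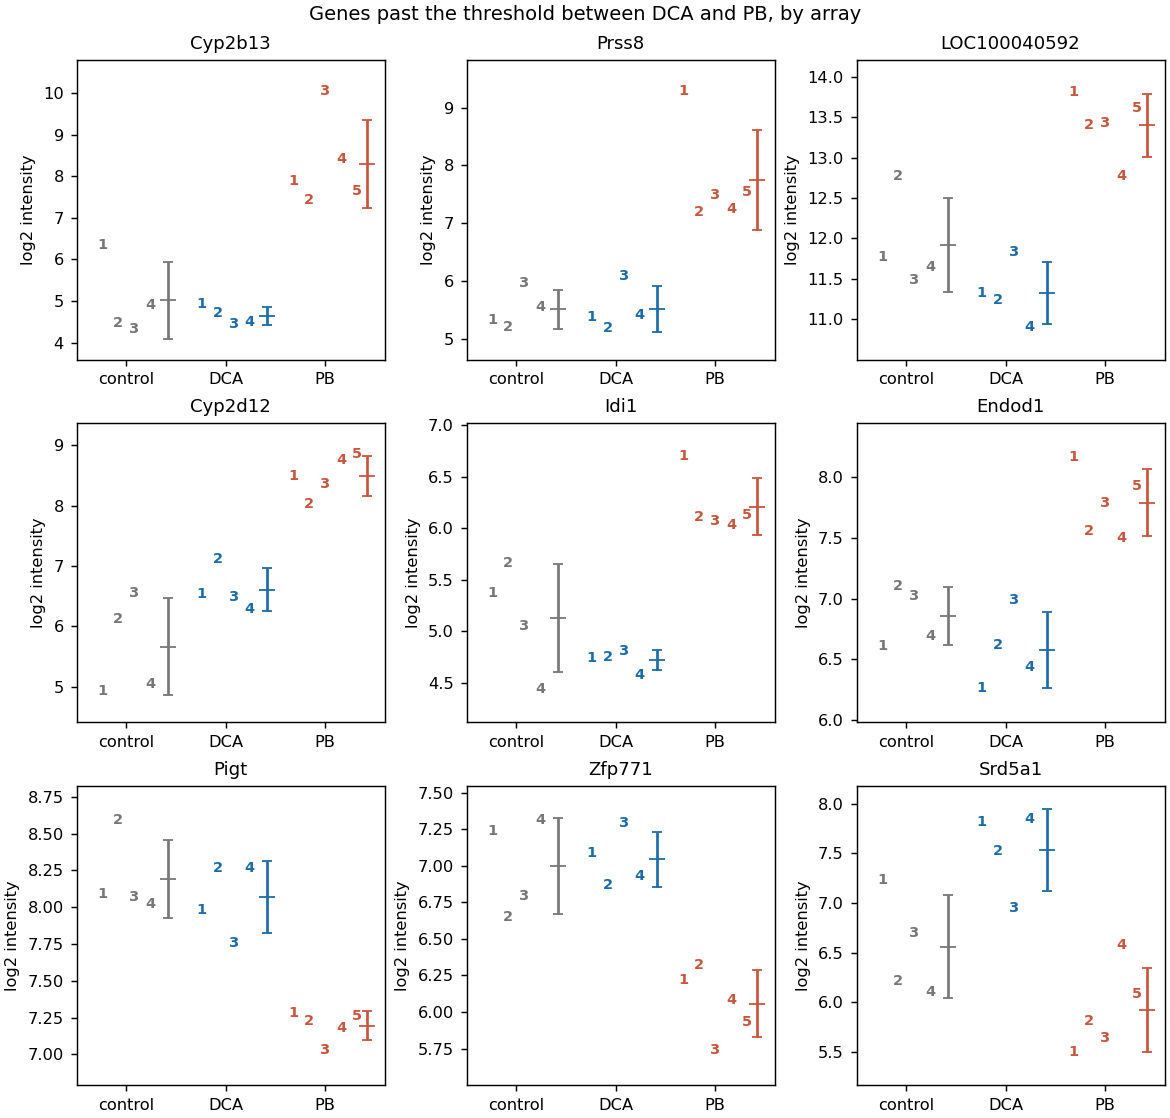
Log2 intensity (vertical axis) of the 9 genes with an adjusted p under 0.05 between DCA and PB, by group (horizontal axis); each number is 1 array with its replicate number, and the bar beside a group is its mean ± SD. DCA and PB arrays do not overlap in any panel, and the DCA arrays overlap the control arrays in every panel.

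Set against the controls, the PB group was the one that stood apart in these genes. PB arrays did not overlap control arrays for 7 of the 9 genes, the exceptions being LOC100040592 and Srd5a1, and DCA arrays overlapped control arrays for all 9. Over all genes, PB and control did not overlap for 3.48% and DCA and control for 2.41%. In limma 6 genes (0.0712%) passed between PB and control: Cyp2b13, Cyp2d12, Prss8 and Lss, higher in PB, and Pigt and Metrn, lower in PB. Between DCA and control 0 genes passed in limma (0%), where 373 genes had an unadjusted p under 0.05 and the lowest adjusted value was 0.995. These comparisons share arrays with the direct one, so their values are given side by side and do not add independent evidence.

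The exact permutation test gave 0.0159 for each of the 9 genes, two-sided and unadjusted, the smallest p that 4 against 5 arrays allow (126 arrangements). Any gene whose DCA and PB arrays do not overlap receives this value, so it adds no evidence for these genes. The count of genes depended on single arrays and on background handling: it was 0 without DCA replicate 2 or DCA replicate 4, 3 without DCA replicate 1 or PB replicate 5, 4 without PB replicate 3, 5 without control replicate 3 or PB replicate 1, and 1 with the standard background fit. With median scaling 5 genes passed and all were lower in DCA, against 6 of 9 as reported. Mean raw intensity was 331 ± 108 in DCA (SD, n = 4) and 250.5 ± 65.0 in PB (SD, n = 5). The 13 arrays were split, after the intensities had been seen, into 8 dimmer arrays (2 of them DCA and 4 PB) and 5 brighter ones (2 DCA and 1 PB). Because the 9 genes did not overlap between DCA and PB, their direction within each class was fixed, and the sizes are given as a description. Cyp2b13 differed by -3.79 among dim and -3.60 among bright arrays, Idi1 by -1.56 and -1.29, and Srd5a1 by 1.65 and 1.09. With the brightness class as a block 5 genes passed, all among the 9: Cyp2b13, LOC100040592, Idi1, Endod1 and Srd5a1.

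**Figure D2:**
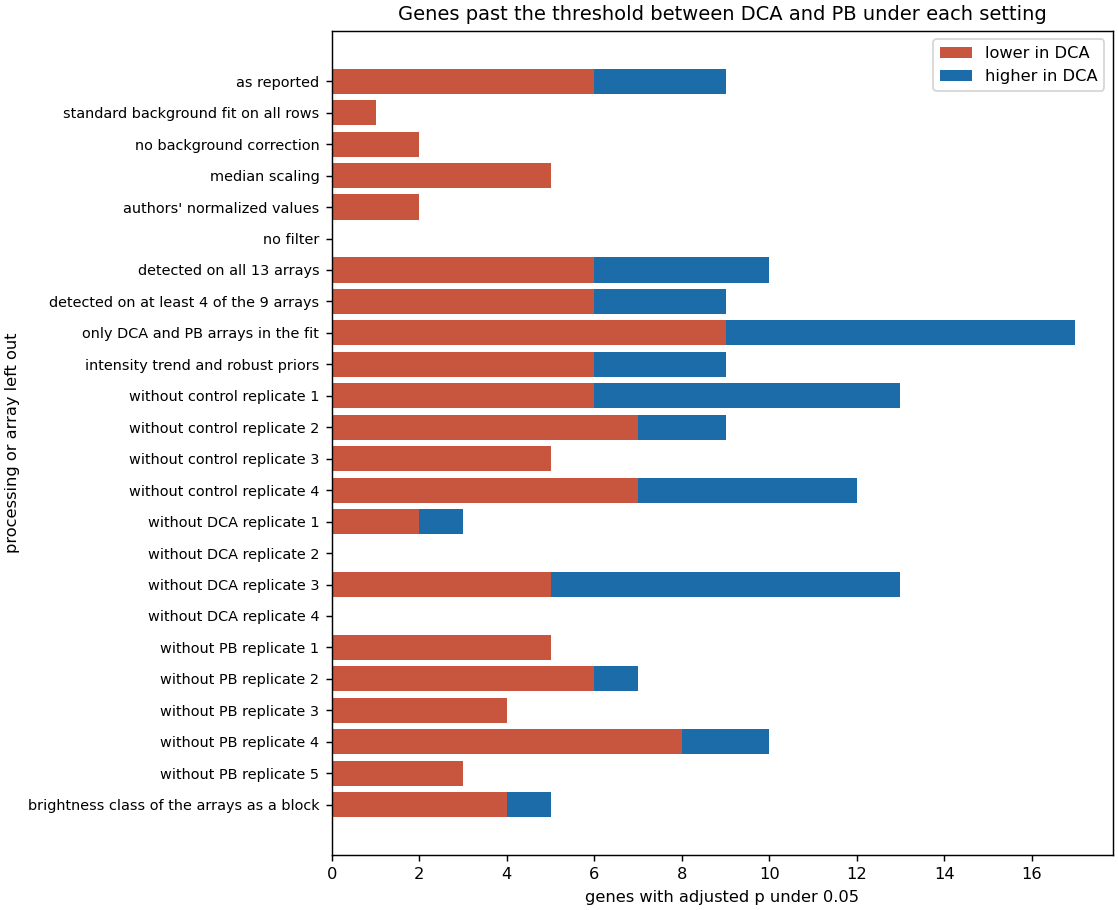
Number of genes with an adjusted p under 0.05 between DCA and PB (horizontal axis) under each processing setting or with 1 array left out (vertical axis), split into genes lower (red) and higher (blue) in DCA; the fit with array weights, at 306 genes, is left off the axis. The count is 9 as reported, 0 without DCA replicate 2 or 4 and without a filter, and 17 with only the DCA and PB arrays in the fit.

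Just short of the threshold stood 12 further genes in each direction, taken by smallest p among genes whose groups did not overlap. Those lower in DCA (adjusted p from 0.0623 to 0.0947) included the mevalonate enzyme Mvd and 4 interferon-related genes of the lists, Ubd, Samd9l, Usp18 and Ifit3. Also among them was 1810023F06Rik, listed in RefSeq as Ifi27l2b, with a difference of -1.57 ± 0.32 and detection on 1 of 4 DCA arrays. Idh2, the mitochondrial NADP-dependent isocitrate dehydrogenase, had 10.22, 9.76, 9.41, 9.55 and 9.89 on the PB arrays and 8.20, 8.92, 8.75 and 8.90 on the DCA arrays (difference -1.07 ± 0.21, adjusted p = 0.079). The remaining ones were LOC100047200, defined in the table as similar to T-box 3, 2610207I05Rik (RefSeq Smg1, a kinase of nonsense-mediated decay), the autophagosome adaptor Fyco1, LOC100048622 and Zfc3h1, with differences from -1.21 to -0.55.

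The 12 that were higher in DCA had an adjusted p from 0.0583 to 0.0809. Dapk3, a death-associated protein kinase, had 7.18, 6.93, 6.88 and 6.93 on the DCA arrays and 5.82, 6.28, 5.64, 5.79 and 5.44 on the PB arrays (1.19 ± 0.22). Slc26a1, a sulphate and oxalate transporter of hepatocytes, had 9.15, 8.54, 7.99 and 7.97 on the DCA arrays and 6.99, 7.19, 7.65, 7.22 and 7.23 on the PB arrays (1.16 ± 0.22). In both genes DCA replicate 1 was highest, and every DCA array lay above every PB array.

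Retsat, the retinol saturase, had 11.94, 11.85, 12.17 and 12.18 on the DCA arrays and 10.80, 10.98, 10.54, 11.27 and 11.25 on the PB arrays (1.07 ± 0.22). Spink6, a serine protease inhibitor gene, was not well above background on any PB array and was detected on 4 DCA, 0 PB and 2 control arrays. It therefore met the filter only with the DCA arrays counted, the group where it was high, so its p is a description and no support. With the background model used here Spink6 was at least 1.85-fold higher in DCA (adjusted p = 0.0583). That bound rests on the background model, since the fitted difference of Spink6 was 1.30 ± 0.23 as reported and 0.18 with the standard background fit. The extracellular superoxide dismutase Sod3 (0.80 ± 0.14) was detected on 4 DCA arrays and 1 PB array, and its difference was as small as 0.10 among the other processing settings. The others were Metrn, Inhbc (a liver activin subunit), Snd1, Srm (spermidine synthase), LOC100048046, 1810049H13Rik (RefSeq Oxld1) and D10Jhu81e (RefSeq Gatd3a), with differences between 0.58 and 1.04. Of these 24 genes, PB arrays lay apart from controls for 10, DCA arrays for 2 and neither group for 12. Over all genes PB lay apart from controls for 3.48% and DCA for 2.41%. The 24 were chosen for having no overlap between DCA and PB, on arrays that both control comparisons share, so these counts are a description only.

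Genes of the interferon response were lower in DCA almost throughout. Interferons act through JAK kinases and STAT and IRF factors, which bind a short element upstream of antiviral and antigen-presentation genes. Of 36 tested genes of this list, 34 had a mean that was lower in DCA, and the median difference was -0.56, against -0.0039 for all genes. None passed the adjusted threshold. At an unadjusted p under 0.05, 20 were lower and 1, Ifi35, was higher, where 7.31% of all genes were lower and 7.2% higher. Of the 36, 10 had all DCA arrays below all PB arrays, where 2.91% of all genes did.

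Ubd, a ubiquitin-like modifier induced by interferon gamma, had 10.18, 8.05, 6.13, 6.81 and 9.16 on the PB arrays and 5.07, 5.07, 4.74 and 4.58 on the DCA arrays. PB arrays differed widely among themselves while DCA and control arrays (4.88 to 5.28) stayed low. Its difference was -3.20 ± 0.61 (adjusted p = 0.0741), and it was detected on 2 of 4 DCA arrays.

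Usp18, which strips the interferon-induced modifier ISG15 from proteins, had 9.38, 7.90, 8.57, 7.56 and 8.31 on the PB arrays and 6.70, 6.92, 6.44 and 6.85 on the DCA arrays (-1.62 ± 0.34, adjusted p = 0.0809). Samd9l, an antiviral and growth-restraining gene, had 8.90, 9.39, 10.33, 8.84 and 9.61 in PB against 8.11, 8.17, 8.30 and 7.99 in DCA (-1.27 ± 0.26, adjusted p = 0.0809). The antiviral gene Ifit3 had 7.88, 7.56, 8.37, 7.18 and 7.84 in PB and 6.56, 6.27, 6.86 and 7.10 in DCA (-1.07 ± 0.23, adjusted p = 0.0947). In Samd9l and Ifit3 PB replicate 3 was highest and in Ubd and Usp18 PB replicate 1, so the high arrays were not the same from gene to gene.

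The mean over the 36 genes was 6.75, 6.82, 6.95 and 6.93 on the DCA arrays. On the PB arrays it was 7.51, 7.55, 7.84, 7.15 and 7.66, all higher than every DCA array, and the controls ran from 6.83 to 7.31 and overlapped both. Leaving out any 1 array kept the list median between -0.70 and -0.46. It was -0.57 among dim and -0.38 among bright arrays.

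**Figure D3:**
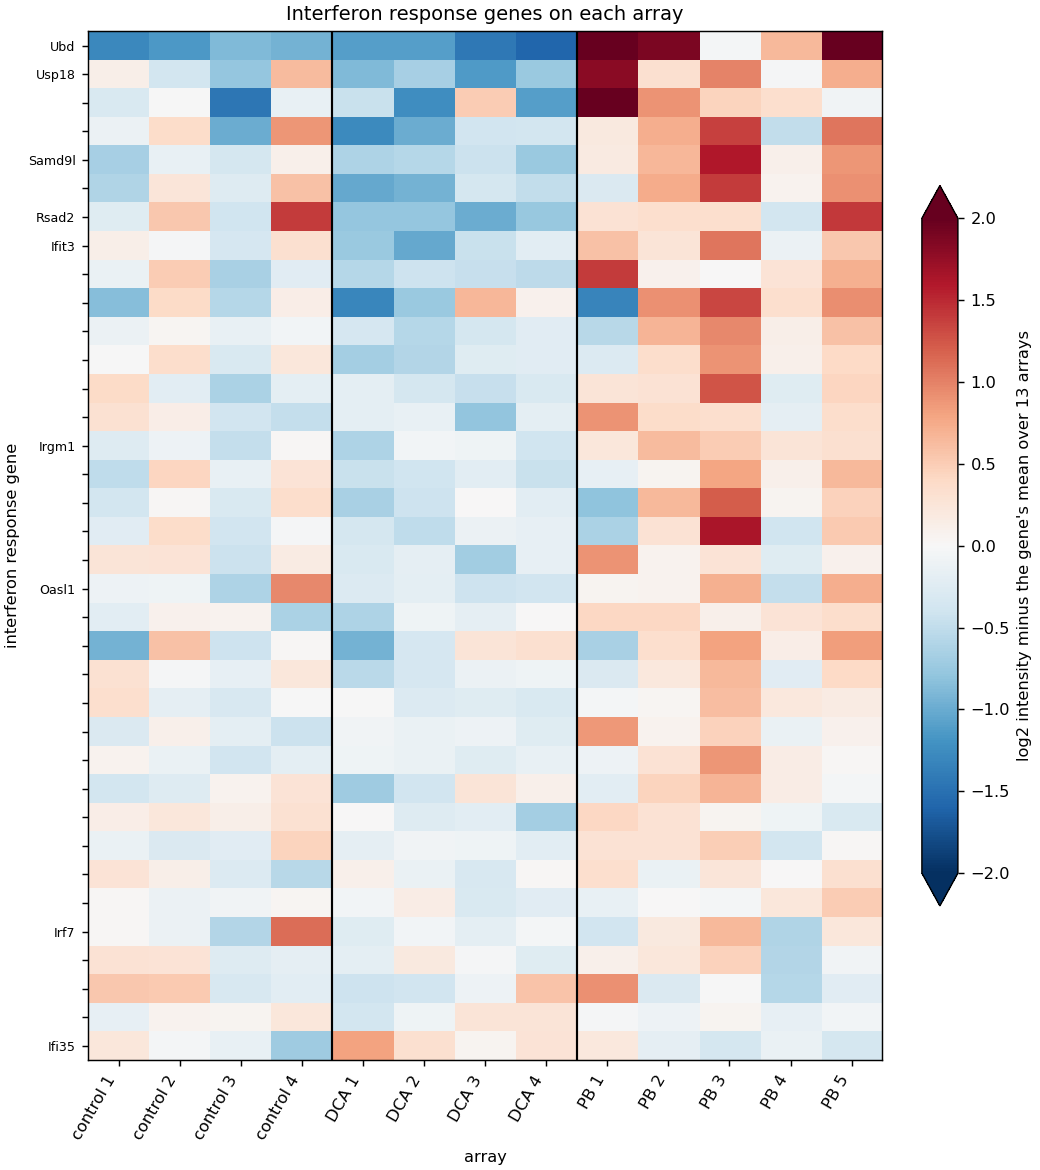
Log2 intensity minus the gene's mean over all 13 arrays (colour, red above and blue below the mean, capped at 2) for the 36 tested interferon response genes (rows, ordered by their difference between DCA and PB and labelled where the text names the gene) on each array (columns). The DCA columns are mostly blue and the PB columns mostly red, with PB replicate 3 reddest and PB replicate 4 palest for many rows, and with control replicate 4 red for Rsad2, Irf7 and Oasl1.

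The promoter windows of these genes were searched because the list members moved together. RefSeq windows (GRCm38.p6, 250 bases before to 50 after the gene start) were found for 26 of the 36 genes. The core of the interferon-stimulated response element, written GAAANNGAA and searched on both strands with overlaps counted, occurred in 13 of these 26 (50%) against 8.5% of the 6435 tested genes with a window and 8.56% of all 32851 windows. A match describes letters only and is not evidence of binding. The list was made of interferon response genes, so a high share follows from that choice and says nothing about DCA against PB. The parts upstream of the gene start are shown for Ifit3 and, chosen after their values were seen for having a match there, for Irgm1 and Rsad2, 5′ to 3′ on the gene's strand with matches to the core on either strand in capitals.
Ifit3, chr19:34583334-34583475, plus strand: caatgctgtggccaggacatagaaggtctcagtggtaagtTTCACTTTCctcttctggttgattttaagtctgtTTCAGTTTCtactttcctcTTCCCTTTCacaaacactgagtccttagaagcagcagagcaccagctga
Irgm1, chr11:48871421-48871490, minus strand: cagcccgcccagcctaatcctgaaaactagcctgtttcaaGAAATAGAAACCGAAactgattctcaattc
Rsad2, chr12:26456523-26456611, minus strand: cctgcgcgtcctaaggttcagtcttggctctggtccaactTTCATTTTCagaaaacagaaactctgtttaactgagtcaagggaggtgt
Ifit3 held 3 matches, Irgm1 an overlapping pair and Rsad2 a single one. Irgm1, an interferon-induced GTPase, differed by -0.68 and Rsad2, the antiviral enzyme viperin, by -1.22. The window of Ubd, which differed most in the list, held 0 matches.

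Some antigen presentation genes had lower means in DCA. Of 9 tested genes of MHC class II presentation, 8 had a lower mean in DCA (median -0.46), where 50.6% of all genes did. Of these, 3 had an unadjusted p under 0.05, against 7.31% of all genes, and 0 passed the adjusted threshold. H2-Aa, an alpha chain of class II, had 6.97, 7.35, 6.46, 6.84 and 7.43 on the PB arrays and 5.60, 5.97, 6.28 and 5.59 on the DCA arrays (-1.15 ± 0.27, adjusted p = 0.127). The beta chain gene H2-Eb1 (-1.16 ± 0.28, adjusted p = 0.133) and H2-Ab1 (-0.80 ± 0.25, adjusted p = 0.206) likewise did not overlap, while Cd74, the invariant chain, overlapped (-0.68 ± 0.33). Ciita, the class II transactivator, differed by 0.01. The class I list had 11 of 15 genes lower in DCA with a median of -0.25, which was -0.04 without PB replicate 1. Both medians leaned on background handling, with -0.12 for class II and -0.06 for class I under the standard background fit.

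Class II genes are expressed mainly by antigen-presenting cells, and in pieces of whole liver fewer such cells and less RNA per cell cannot be told apart. Markers of Kupffer cells and macrophages had a median difference of 0.25 over 11 genes (0.11 without PB replicate 1, 0.43 without PB replicate 5) and list means of 6.90 to 7.16 in DCA and 6.05 to 7.08 in PB. T and NK cell markers had a median of -0.17, with 7 of 7 genes lower in DCA and list means of 4.81 to 5.32 in DCA and 5.15 to 5.60 in PB. These levels were low, and under the standard background fit the T and NK median was -0.02, with 6 genes lower and 1 higher. Single tested markers stood for B and plasma cells (median -0.29) and for dendritic cells (-0.11). None of the marker genes passed the adjusted threshold, and their part in the interferon and class II differences was not tested.

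Genes of cholesterol synthesis had lower means in DCA than in PB. Of 29 pathway lists, 5 had list means with every DCA array below every PB array: this one, interferon response, female-biased genes, tumour-associated genes and CAR and PXR targets. The factor SREBP2, encoded by Srebf2, drives the genes of this route when membrane sterol is scarce. Of 21 tested genes, 17 had a lower mean in DCA, with a median of -0.74, and 1, Idi1, passed the adjusted threshold, against 0.107% of all genes. At an unadjusted p under 0.05, 11 were lower and 0 higher, and 7 had all DCA arrays below all PB arrays. Over all genes these shares were 7.31% lower, 7.2% higher and 2.91% apart.

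Mvd, the mevalonate diphosphate decarboxylase that acts just before Idi1, had 9.03, 8.52, 8.45, 7.10 and 8.41 on the PB arrays and 6.15, 6.48, 6.23 and 5.75 on the DCA arrays (-2.15 ± 0.40, adjusted p = 0.0623). Sqle, the squalene epoxidase, had 9.57, 6.59, 7.45, 7.47 and 7.70 in PB and 6.41, 5.27, 5.21 and 4.80 in DCA (-2.33 ± 0.61, adjusted p = 0.166). Sqle was detected on 1 DCA, 4 PB and 2 control arrays, so it met the filter only with the PB arrays counted, the group where it was high. Lss, the lanosterol synthase that closes the ring system, had 8.17, 7.65, 7.83, 7.49 and 8.04 in PB and 7.42, 7.21, 7.19 and 6.58 in DCA (-0.73 ± 0.19, adjusted p = 0.159). For Lss the controls, at 6.30 to 6.82, lay below all PB arrays, and PB minus control was 1.23 ± 0.19 (adjusted p = 0.0293).

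Srebf2 itself had 8.82, 7.86, 8.03, 7.50 and 8.01 on the PB arrays and 6.62, 6.77, 7.46 and 7.29 on the DCA arrays (-1.01 ± 0.27, adjusted p = 0.168). The groups met closely, at 7.50 in PB and 7.46 in DCA. The later enzymes Tm7sf2 and Sc5d had differences near 0, at 0.08 and 0.03.

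The mean over the 21 genes was 7.46, 7.41, 7.34 and 7.15 on the DCA arrays and 8.78, 7.84, 7.89, 7.82 and 8.08 on the PB arrays. Every PB array was higher than every DCA and every control array (6.69 to 7.79), although control replicate 1, at 7.79, came close to the lowest PB array. Without PB replicate 1, the highest array, the list median was -0.58, and it was -0.88 among dim and -0.43 among bright arrays. Under the standard background fit it was -0.41. The sterol regulatory element written TCACNCCAC occurred in 0 of the 15 list genes with a promoter window and in 1.35% of the 6435 tested genes with a window. This says only that these letters were not in the windows.

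Synthesis of fatty acids and triglycerides showed a smaller difference of the same sign, with 15 of 19 genes lower in DCA, a median of -0.26 and 0 genes past the threshold. Within brightness classes the median changed sign, at -0.24 among dim and 0.14 among bright arrays. Fasn, the fatty acid synthase, did not overlap (4.66 to 5.03 in DCA, 5.11 to 5.91 in PB, -0.64 ± 0.19, adjusted p = 0.193), though its levels were low and it was detected on 3 of 4 DCA arrays. The difference of Fasn was as small as -0.09 among the other processing settings. Acss2, which makes acetyl-CoA from acetate, differed by -0.70 ± 0.25 and the desaturase Fads1 by -0.35 ± 0.14. Agpat2, an acyltransferase of triglyceride synthesis, ran the other way (1.06 ± 0.47). Genes of fatty acid oxidation under PPARA had 22 tested members and a median of 0.03.

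Sex-biased liver genes split by direction. All 29 tested male-biased genes had a higher mean in DCA, with a median of 0.53, and 9 did so at an unadjusted p under 0.05 (7.2% of all genes), but 0 passed the adjusted threshold. Of 25 tested female-biased genes, 20 had a lower mean in DCA, with a median of -0.47, and 3 passed, against 0.107% of all genes: Cyp2b13 and Cyp2d12, lower, and Srd5a1, higher.

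Among male-biased genes, Serpina3k, a secreted serine protease inhibitor, had 6.45, 6.18, 6.10 and 6.28 on the DCA arrays and 5.04, 5.59, 5.41, 5.74 and 5.70 on the PB arrays (0.76 ± 0.16, adjusted p = 0.0809). Its difference was as small as 0.16 among the other processing settings. C8b, a subunit of the complement attack complex, had 11.42, 11.52, 11.43 and 11.59 in DCA and 9.39, 10.76, 10.42, 11.12 and 10.78 in PB (0.99 ± 0.29, adjusted p = 0.185). Both were without overlap, and PB replicate 1 was lowest in both. Moxd1 was not well above background on any PB array and, with the background model used here, was at least 1.47-fold higher in DCA, where 3 of 4 arrays detected it (adjusted p = 0.121). With 0 PB and 2 control arrays detected, Moxd1 met the filter only with the DCA arrays counted, so its p is a description and no support. The fitted difference of Moxd1 was 0.97 ± 0.23 as reported and 0.13 with the standard background fit. The P450 Cyp2u1 differed by 0.55 ± 0.15 with overlapping arrays, and by as little as 0.07 among the other processing settings. Cyp2u1 was detected on 3 DCA, 1 PB and 1 control arrays, so it too met the filter only with the DCA arrays counted.

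Among female-biased genes, Cyp2b9, a neighbour of Cyp2b13 in the same family, had 8.74, 8.45, 10.60, 8.71 and 8.10 on the PB arrays and 5.45, 5.10, 4.43 and 7.12 on the DCA arrays (-3.39 ± 0.84, adjusted p = 0.141). PB replicate 3 was highest for both P450s, and the controls ranged from 5.24 to 9.76 and overlapped both groups. Members of the Cyp2b family have similar sequences, and cross-hybridisation between their probes was not tested. Hamp2, a second hepcidin gene that is higher in females, ran from 10.15 to 12.67 in PB with a peak on PB replicate 3 and had 9.30, 8.81, 9.82 and 9.41 in DCA (-1.87 ± 0.50, adjusted p = 0.168). Its paralogue Hamp, the iron hormone itself, overlapped (0.06 ± 0.35).

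Averaged over the list, female-biased genes stood at 6.46, 6.38, 6.29 and 6.63 on the DCA arrays and at 7.43, 6.98, 7.46, 7.01 and 7.05 on the PB arrays. PB was higher on every array, but the controls fell on both sides, with control replicates 2 and 3 at 6.24 and 6.26 and replicates 1 and 4 at 7.21 and 7.04. Male-biased genes overlapped in their list mean, at 10.24 to 10.70 in DCA and 9.08 to 10.29 in PB, and here control replicates 1 and 4 were the low ones (9.61 and 9.74). The male-biased median was 0.35 without PB replicate 1, with 24 of 29 genes still higher in DCA, and the female-biased median was -0.28 without DCA replicate 1. Under the standard background fit the female-biased median was -0.07, and without background correction the male-biased median was 0.35. Genes of the growth hormone receptor, STAT5 and IGF axis had a median of -0.05 over 14 genes, among them Igf1 (0.35 ± 0.17) and Socs3 (-0.72 ± 0.28).

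**Figure D4:**
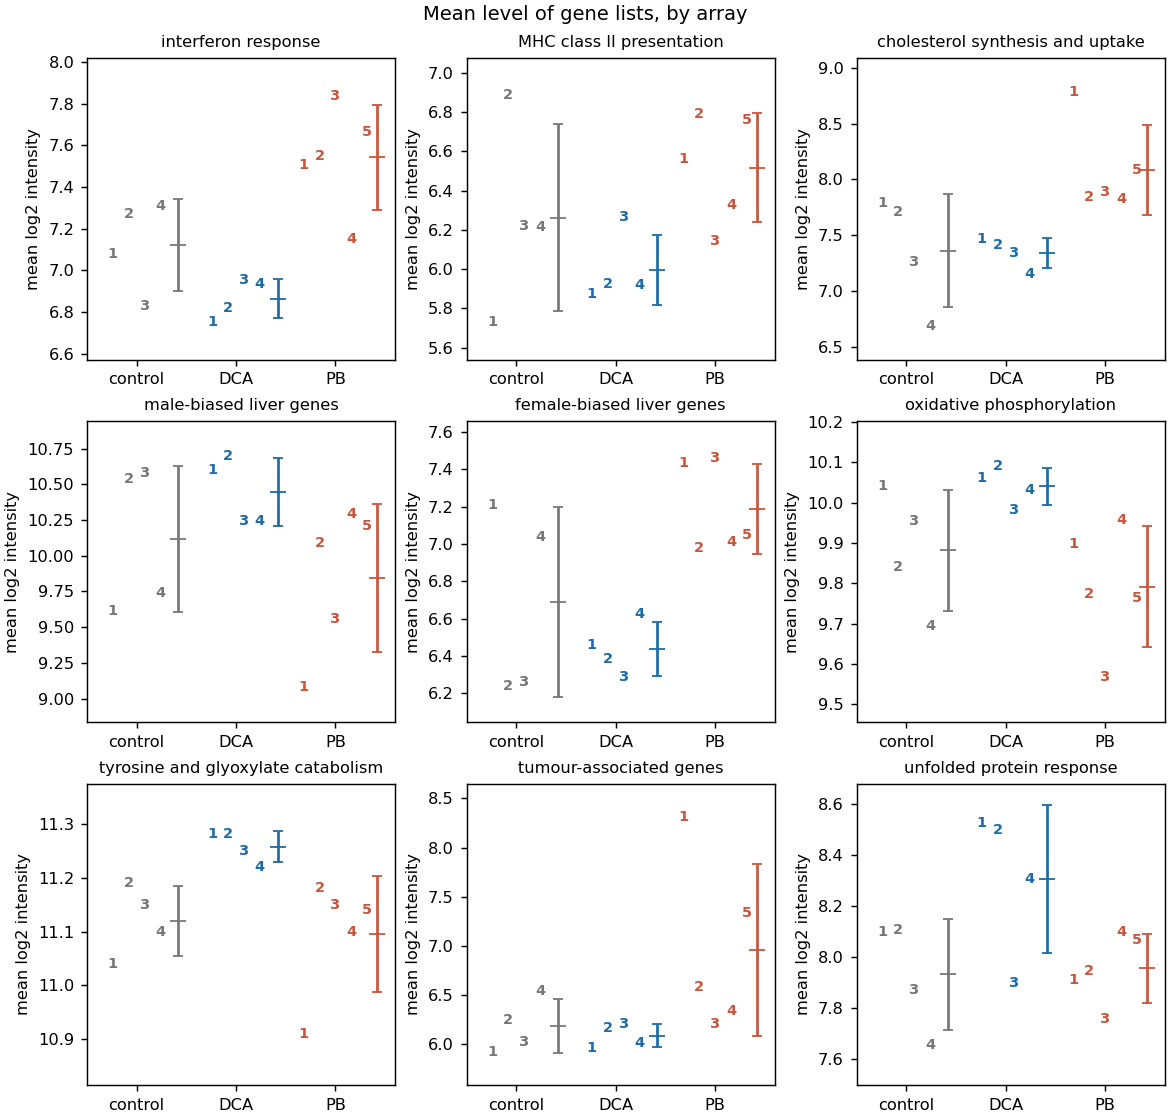
Mean log2 intensity (vertical axis) of 9 gene lists on each array, by group (horizontal axis); each number is 1 array with its replicate number, and the bar beside a group is its mean ± SD. All DCA arrays lie below all PB arrays for interferon response, cholesterol synthesis and female-biased genes and above them for oxidative phosphorylation and tyrosine catabolism, whereas male-biased genes, class II presentation and the unfolded protein response overlap.

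Genes of oxidative phosphorylation, which encode the subunits of the respiratory chain and of ATP synthase, had slightly higher means in DCA. Of 62 tested genes 52 had a higher mean in DCA, the median difference was 0.23, and 15 were higher and 0 lower at an unadjusted p under 0.05, with 0 past the adjusted threshold. Over all genes 7.2% were higher and 7.31% lower at that p. Ndufa12, a complex I subunit, had 9.69, 9.40, 9.29 and 9.63 on the DCA arrays and 9.04, 8.97, 8.51, 8.90 and 8.65 on the PB arrays (0.69 ± 0.19, adjusted p = 0.172). Ndufa5 (0.50 ± 0.15) also did not overlap, while Sdhb of complex II (0.59 ± 0.18) and Cox5a of complex IV (0.71 ± 0.24) did.

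The list mean was 10.06, 10.09, 9.98 and 10.03 on the DCA arrays and 9.90, 9.77, 9.57, 9.96 and 9.76 on the PB arrays. The groups were separated by little, and the controls (9.69 to 10.04) overlapped both. The list's median difference stayed between 0.19 and 0.27 when any 1 array was left out and was 0.37 with median scaling. Brightness moved with it: PB replicate 4, the bright PB array, was highest and PB replicate 3, the dimmest array, was lowest in PB, and the part of brightness in this difference was not tested. Within the dim arrays the median was 0.22 and within the bright arrays 0.14. Cytosolic ribosomal proteins, another list of bright genes, had a median of 0.14.

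The transcripts of enzymes that DCA is known to act on overlapped between the groups. Gstz1 had 12.39, 12.47, 12.50 and 12.67 on the DCA arrays and 12.35, 12.42, 12.72, 12.58 and 12.45 on the PB arrays, a difference of 0.00 ± 0.12. The other 8 tested genes of tyrosine and glyoxylate catabolism had small differences (-0.20 for Hpd to 0.53 for Hao1) and none had an unadjusted p under 0.05. Their list mean with Gstz1 nevertheless lay at 11.22 to 11.28 on the DCA arrays, above PB (10.91 to 11.18) and control (11.04 to 11.19).

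The kinase genes Pdk1 (-0.06 ± 0.29), Pdk2 (0.63 ± 0.36) and Pdk4 (-0.46 ± 0.31) overlapped between the groups. For Pdk4 this was a low gene, at 4.50 to 4.67 in DCA, with PB replicate 1 alone at 6.50. The 25 tested genes of pyruvate dehydrogenase, glycolysis and gluconeogenesis had a median of -0.04, which changed sign without PB replicate 1 (0.09).

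Targets of CAR and its relative PXR had a list mean of 8.46 to 8.84 on the DCA arrays and of 8.84 to 9.44 on the PB arrays, which did not overlap but nearly touched (difference of the group means -0.42). The 28 tested genes had a median of -0.09, with 17 lower in DCA and 1 past the threshold, Cyp2b13. This median moved with single arrays, from -0.26 without DCA replicate 1 to -0.01 without PB replicate 1, and with the brightness class as a block it was -0.21. Cyp2b10, the classical PB-induced P450, was near background at 4.48 to 4.61 in DCA and 4.57 to 5.04 in PB (-0.30 ± 0.14, adjusted p = 0.356). Nr1i3, the gene of CAR (-0.39 ± 0.26), and Nr1i2, the gene of PXR (0.01 ± 0.24), overlapped. Gstm1 (-0.77 ± 0.26) and Gsta1 (-1.65 ± 0.58), glutathione transferases, overlapped too, and in both the PB arrays split.

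That split recurred in some genes of the oxidant-responsive factor NRF2. Cbr3, a carbonyl reductase, had 7.56, 7.69, 4.69, 5.58 and 8.76 on the PB arrays and 4.74 to 4.88 on the DCA arrays. Srxn1, the sulfiredoxin, had 8.11, 7.92, 6.52, 6.74 and 9.15 on the PB arrays and 6.42 to 6.60 on the DCA arrays. PB replicates 1, 2 and 5 were thus higher than replicates 3 and 4 in both genes. PB replicate 3 lay near DCA, while PB replicate 4 was above every DCA array, most so in Cbr3. Gsta1 ran from 7.39 in PB replicate 3 to 11.24 in PB replicate 5. Pgd did not share the split, with 10.53 on PB replicate 3, above every DCA array (9.17 to 10.04). The fit gave -2.04 ± 0.61 for Cbr3 (adjusted p = 0.193) and -1.22 ± 0.40 for Srxn1 (adjusted p = 0.219). Over 25 tested NRF2 targets 20 were lower in DCA, with a median of -0.16 (-0.26 without DCA replicate 4), and the list mean on the PB arrays spanned 7.97 to 9.17 while the DCA arrays spanned 8.24 to 8.29.

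Genes known to be raised in mouse liver tumours were lower in DCA for 18 of 18 tested members, where 50.6% of all genes were. The median was -0.73, but 0 passed and the PB arrays differed widely. The control list means, at 5.92 to 6.54, overlapped both groups. Against control the median was -0.12 for DCA and 0.61 for PB. Ly6d, a small GPI-anchored protein, had 11.41, 6.39, 4.97, 4.50 and 7.84 on the PB arrays and 4.42 to 4.51 on the DCA arrays (-2.56 ± 1.01). Igf2, a fetal growth factor, had 9.52, 5.90, 4.74, 5.43 and 6.65 on the PB arrays and 4.82 to 5.51 on the DCA arrays (-1.41 ± 0.74). Anxa2, an annexin, had 11.24, 9.49, 9.56, 8.76 and 9.96 on the PB arrays and 8.29 to 8.96 on the DCA arrays (-1.23 ± 0.47). PB replicate 1 was highest in all of these, with PB replicate 5 next, and the list mean of PB replicate 1 was 8.32 against 6.21 to 7.34 on the other PB arrays and 5.96 to 6.20 on the DCA arrays. Without PB replicate 1 the median of DCA minus PB was -0.42, with 16 of 18 genes lower in DCA, and without background correction it was -0.43.

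PB replicate 1 also led the pericentral genes, those of hepatocytes around the central vein. Their median was -0.26 over 21 genes (-0.17 without it). Glul, the glutamine synthetase of the innermost hepatocytes, had 8.62, 6.44, 6.31, 6.41 and 6.67 on the PB arrays and 5.43 to 6.47 on the DCA arrays (-0.98 ± 0.42). Rhbg, an ammonium transporter, had 10.85 on PB replicate 1 and 7.25 to 7.82 on the other PB arrays, against 6.44 to 7.27 in DCA. Tbx3, a factor downstream of beta-catenin, was less tied to that array, with 8.27, 7.32, 7.46, 7.91 and 6.94 in PB and 6.71 to 7.01 in DCA (-0.73 ± 0.24, adjusted p = 0.229). Ctnnb1, the gene of beta-catenin, overlapped (-0.02 ± 0.16). Periportal genes had a median of 0.38, which was 0.10 without PB replicate 1, and the P450 Cyp2f2 had 9.42 on that array against 11.04 to 11.78 on the other PB arrays.

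The same array was lowest in the marker lists of Kupffer cells (6.05), sinusoidal endothelium (5.48) and stellate cells (5.33). On the other PB arrays these means were at least 6.52, 6.69 and 6.32, and on the DCA arrays at least 6.90, 6.52 and 6.19. The part of cell makeup in the levels of PB replicate 1 was not tested.

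Most genes of protein folding in the endoplasmic reticulum had higher means in DCA, but the list means overlapped (7.90 to 8.53 in DCA and 7.76 to 8.10 in PB). Of 18 tested genes of the unfolded protein response, 13 had a higher mean in DCA, with a median of 0.38 (0.21 without DCA replicate 1, 0.60 without DCA replicate 3) and 0 past the threshold. At an unadjusted p under 0.05, 4 were higher and 1 lower, where 7.2% of all genes were higher and 7.31% lower. Herpud1, of the degradation machinery, had 12.51, 12.75, 12.21 and 12.39 on the DCA arrays and 11.57, 11.85, 11.68, 12.03 and 11.50 on the PB arrays (0.74 ± 0.20, adjusted p = 0.172). The chaperone Hyou1 had 7.57, 7.22, 5.73 and 6.65 in DCA and 5.07 to 5.99 in PB, so that DCA replicate 3 overlapped (1.18 ± 0.32). The stress factor Atf4 ran the other way without overlap, at 8.37 to 8.89 in DCA and 9.06 to 9.26 in PB (-0.44 ± 0.13, adjusted p = 0.185).

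**Figure D5:**
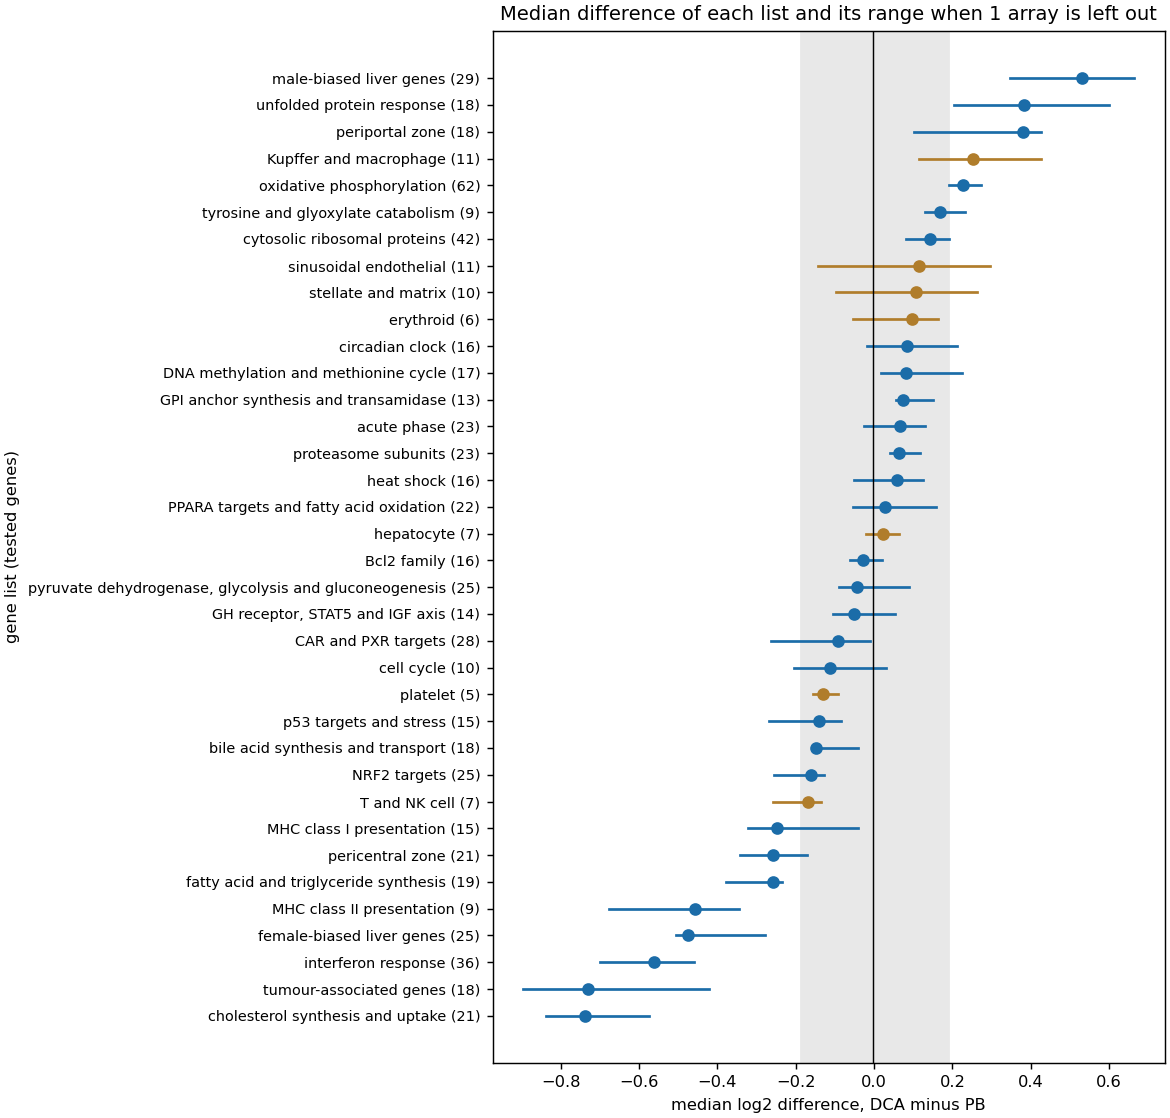
Median log2 difference, DCA minus PB (horizontal axis), of each list with at least 5 tested genes (vertical axis, number of tested genes in brackets); points are the values as reported, lines span the values when any 1 array is left out, blue marks pathway lists and brown marks cell type markers. The grey band is the middle range of all genes (-0.19 to 0.19) and the black line their median; cholesterol synthesis (-0.74) and male-biased genes (0.53) are at the ends.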

How the data were processed

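The authors deposited, per the file headers, a mean intensity and a detection p-value for each gene on each of 13 arrays, with 1 row per gene. GenomeStudio is named in the submitters' processing notes without a version. A second deposited table holds intensity values that the authors normalized by steps that no source used here describes; it served as an alternative. Background was corrected in limma with a normexp fit (offset 16) that infers the noise level from detection p-values, then quantile normalization and log2. Noise was estimated on 13668 rows taken as single-probe because all their detection p-values were whole steps of 1 in 798. The other 4470 rows were taken to hold combined p-values. The classes are inferred, and a combined row with p-values of 0 would count as single-probe. In combined rows the number of arrays detected is not a reliable guide. Group means were fitted over all 13 arrays with lmFit and eBayes (limma 3.58.1, R 4.3.3), two-sided, with Benjamini-Hochberg adjustment over 8431 genes and a threshold of 0.05. Errors of differences are standard errors of the fit; the number of arrays limits the precision. The fit was tested on simulated data. Rows were matched by symbol to RefSeq (GRCm38.p6): 14307 current, 2926 older and 905 unmatched. Groups came from the labels.

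The genes and the 40 lists (29 of pathways, 11 of cell type markers) were chosen with earlier results of these data known. Named genes are those past the threshold, 12 more per direction by smallest p without overlap, up to 4 members per list, a few single genes fixed by name and those past the threshold against control. Other members named with a difference only (such as Ifi35, Irgm1, Rsad2, Ciita, Tm7sf2, Sc5d, Hpd and Alb) were chosen after their values were seen. The alternatives were other background, scaling, filter and fit settings, the brightness class as a block (added after the data were seen) and leaving out each array.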

Additional observations from a re-analysis of the deposited data

Results flagged for a closer look

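Among the 9 genes past the threshold and the 24 next by smallest p, 6 had 1 array far from the rest of its group. This was judged by Dixon's test at the 95% level, which chance alone passes in about 1 in 20 groups. Every gene has a control, a DCA and a PB group, so a count of 6 is near what chance alone gives. Genes named only for their lists are not covered here. Idi1 was at 6.70 on PB replicate 1, with the next PB array at 6.13. Prss8 was at 9.28 on PB replicate 1, with the next at 7.54. Pigt was at 8.59 on control replicate 2, with the next control at 8.09. Dapk3 was at 7.18 on DCA replicate 1, with the next DCA array at 6.93. Spink6 was low on DCA replicate 1, at 5.04 against 5.80 on the nearest array, and 1810023F06Rik was high on DCA replicate 2, at 5.18 against 4.62. In Idi1, Prss8, Dapk3, Spink6 and 1810023F06Rik the DCA and PB arrays did not overlap, so the distant array necessarily lay on its own group's side. For Dapk3, Spink6 and 1810023F06Rik this was a condition of their choice.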

How the results depend on the processing

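The number of genes past the threshold between DCA and PB (9 as reported) was 1 with the standard background fit on all rows, 2 without background correction, 2 with the authors' normalized values, 5 with median scaling, 5 with the brightness class as a block, 0 without a filter (1865 at an unadjusted p under 0.05 in limma), 17 with only the DCA and PB arrays in the fit (8 of the 9 among them) and 306 with array weights (all 9 among them, 140 lower and 166 higher; PB replicate 1 had the lowest weight, 0.35). It was 10 among genes detected on all 13 arrays (7 shared), 9 with a filter on the 9 arrays and 9 with trend and robust priors (7 shared). Leaving out 1 array gave from 0 to 13 genes: 13 without control replicate 1 or DCA replicate 3, and 0 without DCA replicate 2 (835 at an unadjusted p under 0.05) or DCA replicate 4 (951). The cause was not tested. The 9 genes stayed past the threshold in 117 of 214 values under these settings. Cyp2b13 ranged from -3.86 to -1.76 and Idi1 from -1.59 to -0.26. No paired analysis was possible because the labels give no replicate numbers that pair the groups. Low signal limits genes near background: Cyp2b13 and Idi1 were not detected on every DCA array.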

Other observations

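Bad, a proapoptotic member of the Bcl2 family, was higher on every DCA array than on any PB array (0.43 ± 0.12, adjusted p = 0.185 in limma), while the 16 tested genes of its family had a median difference of -0.03. Igfals, which carries circulating IGF1, did not overlap either (0.66, higher in DCA), nor did the bile acid carrier Slco1b2 (-0.44) and the proteasome subunit Psmd7 (-0.49). The oxysterol hydroxylase Cyp7b1 (0.90) and the small heat shock protein Hspb1 (-0.93) overlapped. Fgf21, a hormone of fasting and stress, had 9.84 on PB replicate 1 and 4.93 to 6.47 on the other PB arrays, against 4.43 to 4.93 on the DCA arrays, and its difference of -1.78 ± 0.73 was -0.93 without PB replicate 1.

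In the lists not described so far, Pigt was the single gene past the adjusted threshold. The median difference was 0.08 for the circadian clock, 0.06 for heat shock, 0.07 for the acute phase, -0.15 for bile acid synthesis and transport, -0.11 for the cell cycle, -0.14 for p53 targets, 0.07 for GPI anchor synthesis, 0.08 for DNA methylation and the methionine cycle and 0.06 for the proteasome. Among cell type markers it was 0.02 for hepatocytes, 0.11 for sinusoidal endothelium and for stellate cells, -0.30 for neutrophils (3 genes), -0.09 for cholangiocytes (4 genes), 0.10 for erythroid cells and -0.13 for platelets. The endothelial and stellate medians changed sign without PB replicate 1 (-0.14 and -0.10), as did that of the cell cycle (0.03).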
